A study of Mus musculus with 23 samples.

Results

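Proteasome subunit genes were followed in brain RNA of mice with and without a mutation in an NMDA receptor gene and with and without foot-shock. A gene was a member when its mouse symbol began with Psma to Psmg followed by a digit, it was protein coding, its name was not that of a pseudogene, and its mean was at least 10 normalized counts over the 23 labelled libraries. Of 18578 genes in the deposited table, 48 had such a symbol and 47 passed, all among the 17118 genes tested. The gene left out by the minimum was Psma8, with a mean of 6.05 normalized counts, and the lowest member was Psmb9, with 23.62. The members comprised 17 genes of the core particle, 22 of the regulatory particles and 7 of assembly chaperones. The last member was Psmc3ip, which matches the naming pattern but encodes a recombination cofactor named for binding Psmc3 and is not a proteasome subunit. The other 46 genes belong to the proteasome system, but not all are subunits in the strict sense. The 7 chaperones assemble it, and the 22 regulatory genes include 4 separate activators and 1 inhibitor.

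The libraries came from brain of male C57BL/6J mice that were either wild type (WT) or heterozygous for the C456Y allele of Grin2b (HT, written heterotype in the sample labels). Each genotype was sampled without (control) and with (shock) foot-shock, a brief current through the cage floor used as an aversive stimulus. The 23 libraries divide into 6 for WT control, 5 for WT shock, 6 for HT control and 6 for HT shock. The product of Grin2b, GluN2B, is a subunit of glutamate-gated NMDA receptors. The labels name no brain region, Cre or transgene. The sample labels give postnatal day 17 as the age while the series text speaks of adults, so the age is unresolved. Whether every library is its own animal is not stated, and the p-values reflect only how these libraries scatter, which could be technical. In bulk tissue, fewer cells of a type and less RNA per cell cannot be told apart.

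The proteasome is the protease that degrades most ubiquitin-tagged proteins in the cytosol and nucleus. Its core particle is a barrel of stacked rings, with outer alpha rings that gate the channel and inner beta rings that hold the cutting sites. A regulatory particle caps the barrel, where lid and base recognise and deubiquitinate the substrate and a ring of ATPases unfolds and threads it. Other activators open the gate without ubiquitin, and dedicated chaperones assemble the rings. After interferon, cells make inducible catalytic subunits that replace the constitutive ones and alter the peptides cut for antigen presentation. In neurons the proteasome is known for turning over synaptic proteins during plasticity.

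Promoter sequences are shown for 4 members that mark the different behaviours described below: an activator that rose, an activator that fell, a constitutive catalytic subunit and its inducible replacement. They are RefSeq windows on GRCm38.p6 of 300 bases around the start RefSeq gives, read 5′ to 3′ on the gene's strand, and such a window was matched for 40 of the 47 members. Capitals mark a match to 1 of 4 motifs searched on both strands: TGACNNNGC (antioxidant response element core, known to bind the Nfe2l1 and Nfe2l2 factors), CCAAT (NF-Y box), the interferon-stimulated response element core and TTCNNNGAA (interferon gamma activated site).
Psme1, chr14:55578244-55578543, plus strand: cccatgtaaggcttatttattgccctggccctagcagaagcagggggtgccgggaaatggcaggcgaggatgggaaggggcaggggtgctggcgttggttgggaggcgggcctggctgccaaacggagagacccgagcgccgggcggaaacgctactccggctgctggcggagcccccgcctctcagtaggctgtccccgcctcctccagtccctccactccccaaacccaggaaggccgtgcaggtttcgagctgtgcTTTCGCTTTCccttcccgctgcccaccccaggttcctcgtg
Psme4, chr11:30771525-30771824, plus strand: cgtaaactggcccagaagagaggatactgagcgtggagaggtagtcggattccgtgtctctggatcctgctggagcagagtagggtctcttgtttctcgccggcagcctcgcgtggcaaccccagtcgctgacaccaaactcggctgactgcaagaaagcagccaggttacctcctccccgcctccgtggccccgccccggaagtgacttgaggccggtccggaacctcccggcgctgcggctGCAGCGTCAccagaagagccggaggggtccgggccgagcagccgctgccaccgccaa
Psmb5, chr14:54617946-54618245, minus strand: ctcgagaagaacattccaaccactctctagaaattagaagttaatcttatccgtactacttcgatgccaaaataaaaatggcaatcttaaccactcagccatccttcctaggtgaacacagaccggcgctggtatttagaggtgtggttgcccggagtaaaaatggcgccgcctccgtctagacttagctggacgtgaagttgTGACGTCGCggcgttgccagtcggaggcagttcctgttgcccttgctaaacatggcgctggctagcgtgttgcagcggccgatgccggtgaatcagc
Psmb8, chr17:34197945-34198244, plus strand: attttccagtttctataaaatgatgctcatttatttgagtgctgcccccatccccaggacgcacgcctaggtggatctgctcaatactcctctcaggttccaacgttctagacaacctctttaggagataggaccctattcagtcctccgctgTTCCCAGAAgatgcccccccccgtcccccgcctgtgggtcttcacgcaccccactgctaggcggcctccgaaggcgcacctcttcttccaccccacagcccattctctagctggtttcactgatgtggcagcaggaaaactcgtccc

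In these windows Psme1 held an interferon-stimulated core at position 260, counted from 1 at the 5′ end. Psme4 held the antioxidant core on the reverse strand at position 244, Psmb5 held it on the forward strand at position 204, and Psmb8 held an interferon gamma site at position 154. Among the 40 members with a window, 6 (15%) held TGACNNNGC, against 14% of 27025 genes, counting a match in any window of a gene. CCAAT was in 14 (35%, against 41.1% of genes), the interferon-stimulated core in 5 (12.5%, against 3.99%) and TTCNNNGAA in 3 (7.5%, against 9.55%). These are matches of letters, not binding sites. For Psme1 and Psmb8 the GENCODE gene model used for the positions in this text begins upstream of the window, at 55578123 and 34197721, so these windows lie wholly inside that model. Some members are close neighbours. Psmb9 and Psmb8 lie 10 kb apart on chromosome 17 on opposite strands, and Psme1 and Psme2 lie 5.9 kb apart on chromosome 14 on opposite strands. Psmb9 overlaps the antigen transporter gene Tap1 by 212 bases on the opposite strand. Psma2 overlaps AW209491 over 8943 bases on the same strand, Psmg3 overlaps Gm26938 over 2816 bases and Psmd1 overlaps Gm21972 over 5515 bases, so their values are uncertain where reads could be split.

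Levels were compared between genes only per kilobase, as mean normalized counts over all libraries divided by the length of the longest principal transcript. Which transcripts were expressed was not checked, so levels per kb depend on this assigned length. The ATPase gene Psmc5 had the highest level of any member, 3760 normalized counts per kb (library range 3447 to 4168). Among catalytic subunits, Psmb6, which carries the caspase-like site, had 3142 per kb, Psmb5 with the chymotrypsin-like site 2480 and Psmb7 with the trypsin-like site 2469. Alpha ring genes ran from Psma3 at 732.2 to Psma7 at 2751 per kb, with a median of 1721, and structural beta genes from Psmb2 at 1761 to Psmb4 at 2334. Psma3 and Psma2 were assigned 2846 and 2911 bases, and Psma7 was assigned 914. Before division by length these genes had 2084, 2466 and 2515 normalized counts. The 6 base ATPases ran from Psmc6 at 1044 to Psmc5, with a median of 2152. The other base subunits were Psmd1 at 1278 per kb, Psmd2 at 2129 and Psmd4, a ubiquitin receptor, at 2207. Lid genes ran from Psmd11 at 720.0 to Psmd3 at 1892 per kb.

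Activators ran from Psme4 at 311.4 to Psme3 at 1177 per kb, the inhibitor Psmf1 had 271.9, and the 7 assembly chaperones ran from Psmg4 at 206.6 to Psmg2 at 374.6. Of the inducible subunits Psmb10 had 467.9 per kb, while Psmb8 at 31.84 and Psmb9 at 17.47 were the lowest of all members, below Psmc3ip at 43.03. The within-group SD on the log2 scale was smallest for Psme3 (0.033), the nuclear activator, and for the base scaffold genes Psmd1 (0.035) and Psmd2 (0.04). It was largest for Psmb9 (0.452) and Psmb8 (0.245).

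**Figure D1:**
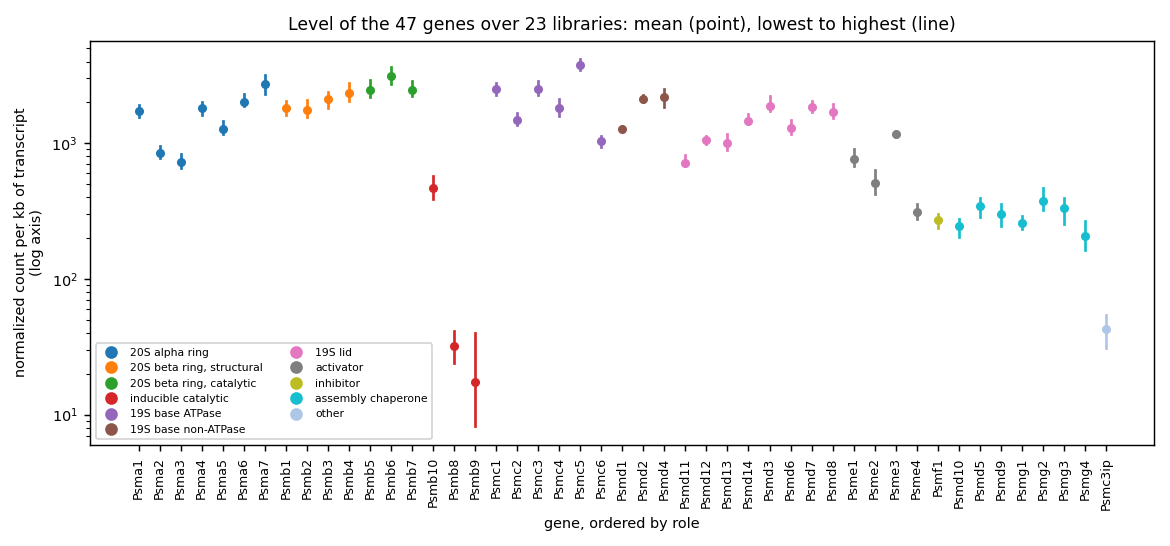
Level of each of the 47 members on a log axis, in normalized counts per kb of transcript, grouped by role, with the range over the 23 libraries. Psmc5 stands highest at 3760 per kb, and Psmb8 and Psmb9 stand lowest at 31.84 and 17.47.

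The members took between 0.284% and 0.343% of all normalized counts of a library. Normalized counts summed to 30.98 to 32.57 M per library (M, mega). Sums after normalization carry no information on depth, which is unknown. The correlation of a library with its group lay between 0.9856 and 0.99, and none stood apart by the limit of 3 median absolute deviations. The markers of neurons that define the labelled tissue were high in every group, with summed levels from 194300 to 217000 normalized counts. One library did differ for these members. HT control replicate 6 had the highest value of its group for 33 of 47 members, and its member score, the mean log2 deviation over members from their overall means, was 0.143. The other HT control libraries scored from -0.067 to 0.057. Results that rest on HT control are therefore given with and without it. It was picked by its values for these same members, so results without it are a description and no independent support.

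**Figure D2:**
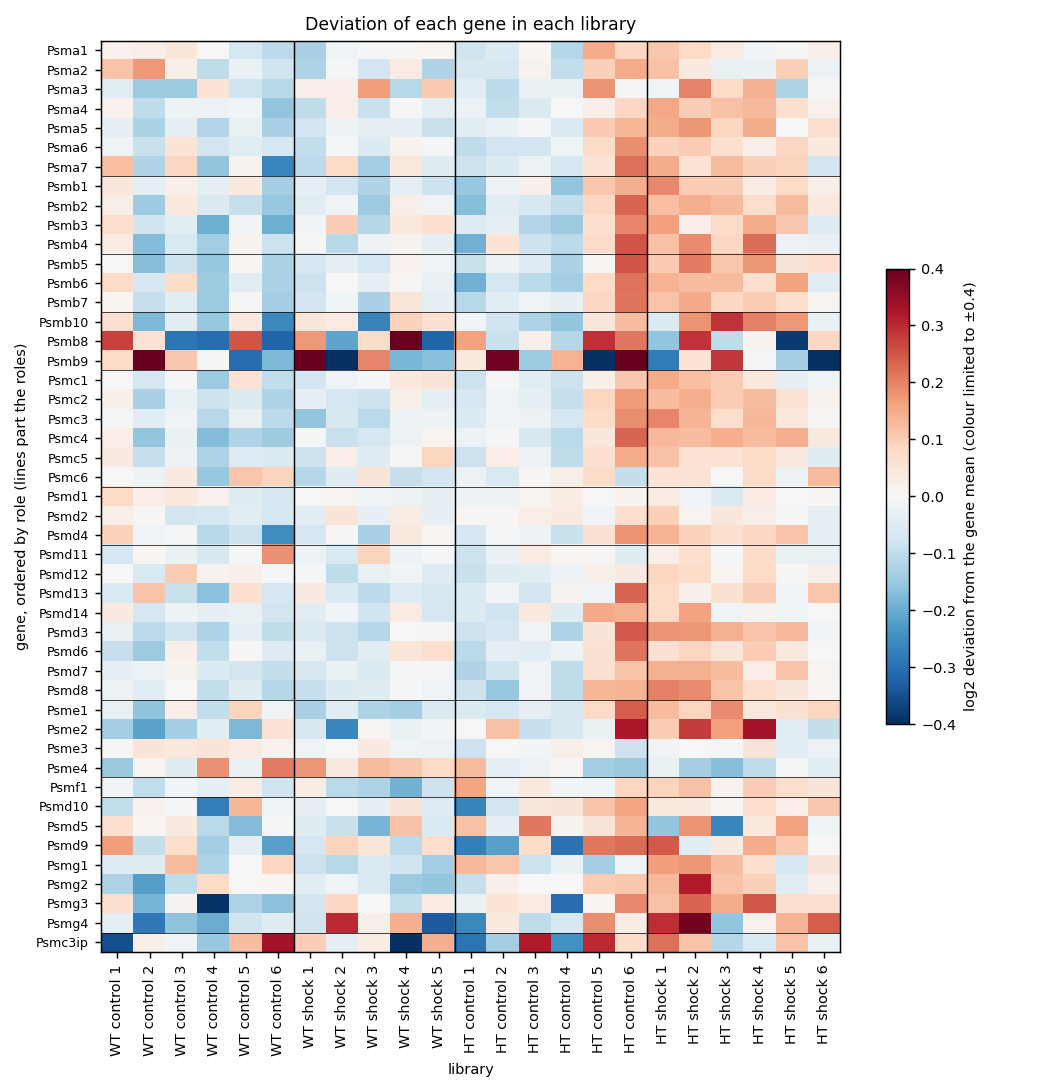
Log2 deviation of each member (rows, by role) from its mean over all libraries, for each of the 23 libraries (columns, by group). HT control replicate 6 is high over most rows, as are HT shock replicates 1 and 2, whose member scores were 0.095 and 0.119.

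The comparison of genotypes after shock set heterozygous against wild-type brain, both shocked. Here 44 of 47 members had a higher mean in HT shock, against 50.8% of all genes tested. The member median was 0.108 on the log2 scale against 0.004 for all genes. Many members deviated together within a library, so counts over members, here and below, are not independent observations. In limma, 9 members rose and 1 fell at a Benjamini-Hochberg adjusted p under 0.05, which is 21.3% of the members where 9.28% of all genes passed (3.95% higher and 5.33% lower). The changes were small, from 1.1-fold to 1.15-fold among the genes that rose. The groups did not overlap for 11 members that were higher in HT shock and 1 that was lower, against 3.75% and 4.82% of all genes.

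Of the core genes 3 of 17 rose and 0 fell, with a median of 0.124. Psma5, an alpha ring subunit, had 1503, 1561, 1545, 1547 and 1490 normalized counts in the WT shock libraries and from 1587 to 1793 (median 1718) in HT shock. Every HT shock library was above every WT shock library, with a log2 difference of 0.16 ± 0.04 (± SE here and below; limma adjusted p = 0.0268). Psma4, also of the alpha ring, had 1956, 2138, 1971, 2087 and 2046 in WT shock and 2124 to 2336 (median 2261) in HT shock. One WT shock library lay above the lowest HT shock library. Its difference was 0.14 ± 0.04 (adjusted p = 0.0341). Psmb1, a structural beta subunit, had 3077, 2999, 2907, 3075 and 2984 in WT shock and 3214 to 3614 (median 3366) in HT shock, with no overlap. Its difference was 0.16 ± 0.05 (adjusted p = 0.0405). The 3 constitutive catalytic subunits, which do the cutting, all lay above 0 but none passed: Psmb5 had 0.15 ± 0.05 (adjusted p = 0.0587), Psmb7 0.13 ± 0.05 (0.0795) and Psmb6 0.12 ± 0.06 (0.167). Psmb5 did not overlap, with 2118 to 2250 normalized counts in WT shock and 2305 to 2564 in HT shock. The other alpha ring genes were Psma6 (0.10, groups not overlapping), Psma7 (0.11), Psma2 (0.09), Psma1 (0.07) and Psma3 (0.01), and none passed. Of the remaining structural beta genes Psmb2 had 0.15 without overlap (adjusted p = 0.0914), Psmb4 had 0.12 and Psmb3 0.06.

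Of 22 regulatory genes, 6 rose and 1 fell, with a median of 0.104. The base ATPases, which unfold substrates, gave 3 of 6. Psmc3 had 3699, 3942, 3829, 4068 and 4069 normalized counts in WT shock and 4133 to 4716 (median 4424) in HT shock. Those groups did not overlap, and the difference of 0.17 ± 0.04 (adjusted p = 0.0228) had the smallest p of all members. Psmc4 had 2586, 2446, 2475, 2558 and 2622 in WT shock and 2671 to 2874 (median 2836) in HT shock, again without overlap (0.15 ± 0.05, adjusted p = 0.0475). Psmc2 had 2592, 2527, 2502, 2696 and 2587 in WT shock and 2680 to 2937 (median 2868) in HT shock, with overlap (0.14 ± 0.04, adjusted p = 0.0494). In the lid 1 of 8 genes passed. Psmd3 had 3888, 3822, 3745, 4055 and 4028 in WT shock and 4019 to 4588 (median 4450) in HT shock, with overlap at the lowest HT library (0.17 ± 0.05, adjusted p = 0.0303). Psmd7 (0.12, adjusted p = 0.0516) and Psmd8 (0.15, adjusted p = 0.0534) lay just outside the threshold, both without overlap between the groups. The remaining lid genes ran from Psmd11 at 0.02 to Psmd13 at 0.11, and among them Psmd12 (0.09, adjusted p = 0.109) did not overlap. The other ATPases had 0.10 (Psmc6), 0.06 (Psmc1) and 0.05 (Psmc5). Of the base subunits that are not ATPases, the scaffold genes Psmd1 at 0.01 (95% interval -0.05 to 0.07) and Psmd2 at 0.03 (-0.04 to 0.09) had narrow intervals around 0, with the overlap of Psmd1 named above, and Psmd4 had 0.10.

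The 4 activators split. Psme1, which forms a gate-opening ring with Psme2, had 772.5, 821.4, 776.0, 769.4 and 813.0 normalized counts in WT shock and 871.9 to 964.0 (median 897.5) in HT shock. The groups did not overlap, and the difference was 0.20 ± 0.06 (adjusted p = 0.03), the largest rise among the called members. Its partner Psme2 had 0.19 ± 0.08 (adjusted p = 0.122) and did not pass. Psme4, a large nuclear activator, was the only member that fell among the 47, with 2275, 2065, 2198, 2170 and 2130 in WT shock and 1791 to 2006 (median 1914) in HT shock. Every HT shock library lay below every WT shock library, and the difference was -0.19 ± 0.06 (adjusted p = 0.0418). Psme3 stood at 0.00 (95% interval -0.07 to 0.06). Psmf1, named as a proteasome inhibitor, had 1055, 958.5, 948.5, 907.3 and 975.7 in WT shock and 1047 to 1121 (median 1092) in HT shock, overlapping at 1 WT library (0.17 ± 0.04, adjusted p = 0.023).

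Of 7 assembly chaperones 0 passed in limma, with 2 higher and 0 lower at an unadjusted p under 0.05, where 13.1% of all genes were higher and 14.8% lower. The 2 were Psmg2 (0.19 ± 0.07, adjusted p = 0.0635) and Psmg1 (0.18 ± 0.07, adjusted p = 0.078), which pair as the first chaperone of the alpha ring. The others were Psmg3 (0.16), Psmg4 (0.14), Psmd9 (0.08), Psmd10 (0.06) and Psmd5 (0.04), so that all 7 lay above 0, with a median of 0.142. Psmc3ip, the recombination cofactor, had 0.09 ± 0.15.

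The called members are placed by their levels in all 4 groups. Psmc3 (ENSMUSG00000002102, GRCm38 chromosome 2, 91054009 to 91066369, plus strand) had, as mean ± SD of normalized counts, 3978 ± 123 for WT control (n = 6), 3921 ± 160 for WT shock (n = 5), 4179 ± 287 for HT control (n = 6) and 4411 ± 214 for HT shock (n = 6). Psme1 (ENSMUSG00000022216, chromosome 14, 55578123 to 55581529, plus strand) had 828.7 ± 50.8, 790.5 ± 24.7, 858.1 ± 77.4 and 906.2 ± 33.2 in the same order. Psmf1 (ENSMUSG00000032869, chromosome 2, 151715812 to 151744186, minus strand) had 1010 ± 32.8, 968.9 ± 54.1, 1065 ± 52.5 and 1088 ± 26.2. Psme4 (ENSMUSG00000040850, chromosome 11, 30771726 to 30880361, plus strand) had 2065 ± 200, 2168 ± 78.1, 1969 ± 141 and 1907 ± 85.3. The HT control mean lay between the WT shock and HT shock means for all 10 called members, and for all 10 also without HT control replicate 6. The HT control means were then 4077 ± 161 for Psmc3, 829.5 ± 36.4 for Psme1, 1058 ± 56.1 for Psmf1 and 2000 ± 134 for Psme4 (SD, n = 5). The WT control mean also lay between the shock means for Psmc3, Psme1, Psmf1, Psme4 and Psmb1, but not for the other called members. This order has no test of its own and was not counted over all genes. Genes picked for a difference between the shock groups tend to place other groups between them.

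**Figure D3:**
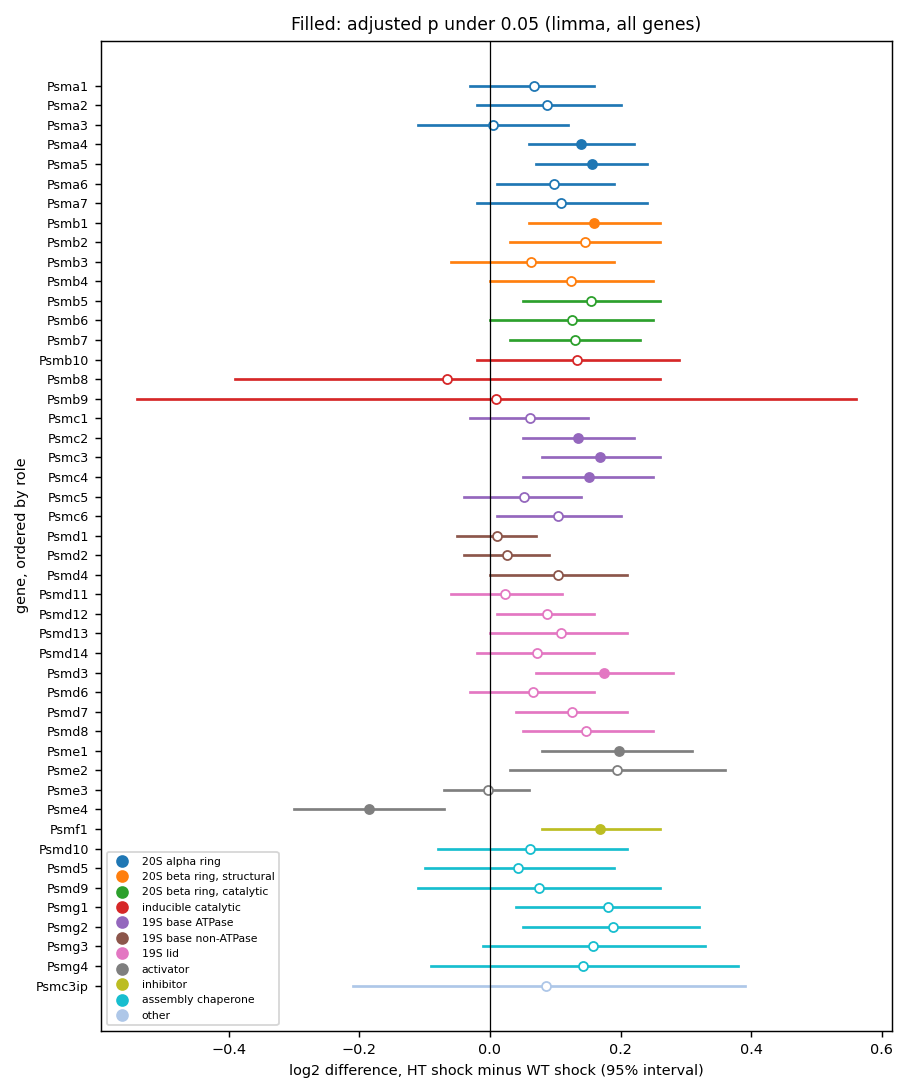
Log2 difference, HT shock minus WT shock, with 95% interval, for each of the 47 members by role. 9 members rose and 1 fell at an adjusted p of 0.05, and Psme4 at -0.19 is the lone call below 0.

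**Figure D4:**
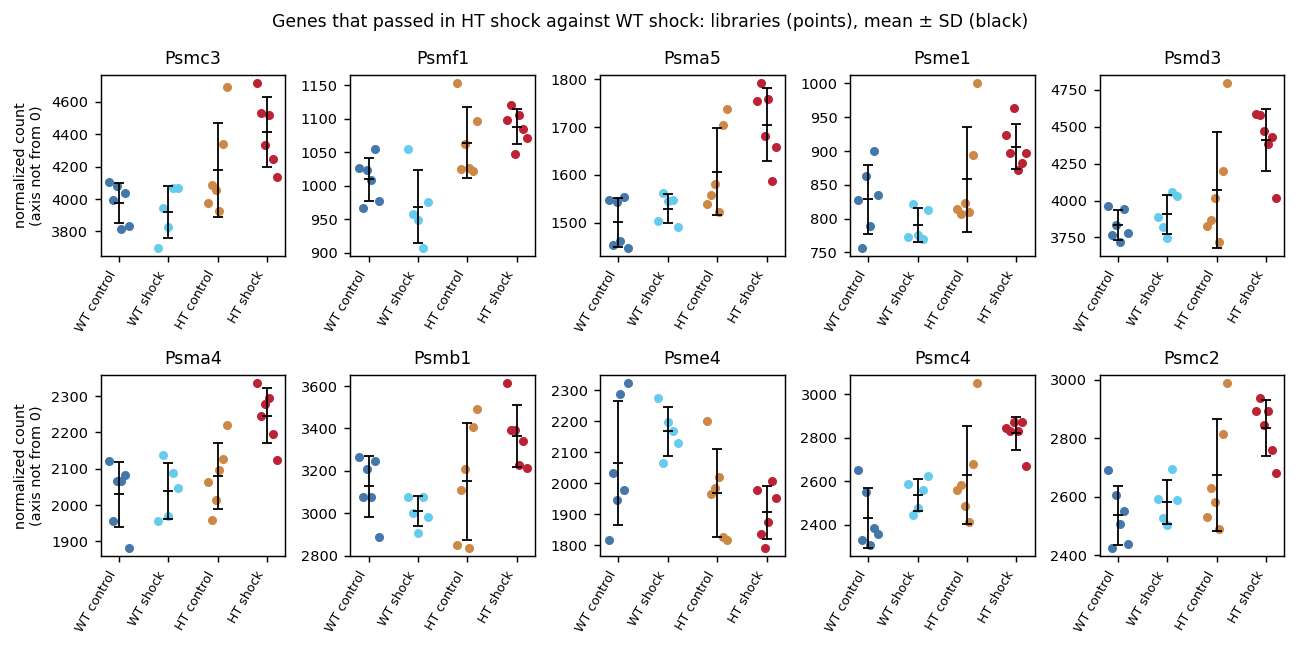
Normalized counts of the 10 called members in each library (points) by group, with mean ± SD in black. For Psmc3, Psma5, Psme1, Psmb1 and Psmc4 the 6 HT shock points lie above the 5 WT shock points, and for Psme4 they lie below.

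Which members passed depended on single libraries. Without HT shock replicate 1 or 2, 0 members passed in limma (where 2.47% and 2.9% of all genes did), and 3 passed without HT shock replicate 3 or 4 (3.37% and 4.9% of all genes). Leaving out a WT shock library gave 1, 4, 1, 5 and 4 members for replicates 1 to 5, where 4.42%, 3.57%, 4.22%, 7.23% and 4.97% of all genes passed. Without HT shock replicate 1 or 2, or WT shock replicate 1 or 3, the members' share was thus below that of all genes. Without HT control replicate 6, which is in neither group but adds to the shared spread, 16 passed, 15 higher and 1 lower, while the share over all genes was 17.1%. The call was lost in 17 of 23 omissions of a library for Psmc2, 16 for Psmc4, 10 for Psmb1, 9 for Psme4, 7 each for Psma4 and Psmd3, 6 for Psme1, 5 each for Psma5 and Psmf1 and 4 for Psmc3. The member median lay between 0.093 and 0.126 over the omissions. After the values of every library were corrected for length and GC content of the transcripts, 5 members rose and 0 fell, where 5.1% of all genes passed, and the median was 0.065. Of those 5, 4 were among the 9 above: Psmf1 (0.21, adjusted p = 0.00894), Psma5 (0.12, 0.0407), Psma4 (0.12, 0.0438) and Psmb1 (0.16, 0.0444). Psmc6, at 0.10 without the correction (adjusted p = 0.127), was the other (0.21, adjusted p = 0.0114). Psme4, whose transcript of 6491 bases is the longest, had -0.06 ± 0.04 (adjusted p = 0.487) after the correction, and Psme1 had 0.11 (adjusted p = 0.142).

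The shorter members, 24 with transcripts of 555 to 1430 bases, had a median of 0.12 with all 24 above 0, and 3 rose. The 23 longer ones, of 1440 to 6491 bases, had a median of 0.09 with 6 rises and 1 fall. After the correction the medians were 0.06 and 0.08. With a correction for length alone, added after seeing the data, 3 members passed, where 6.62% of all genes did. Whether transcript length causes the differences was not tested.

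**Figure D5:**
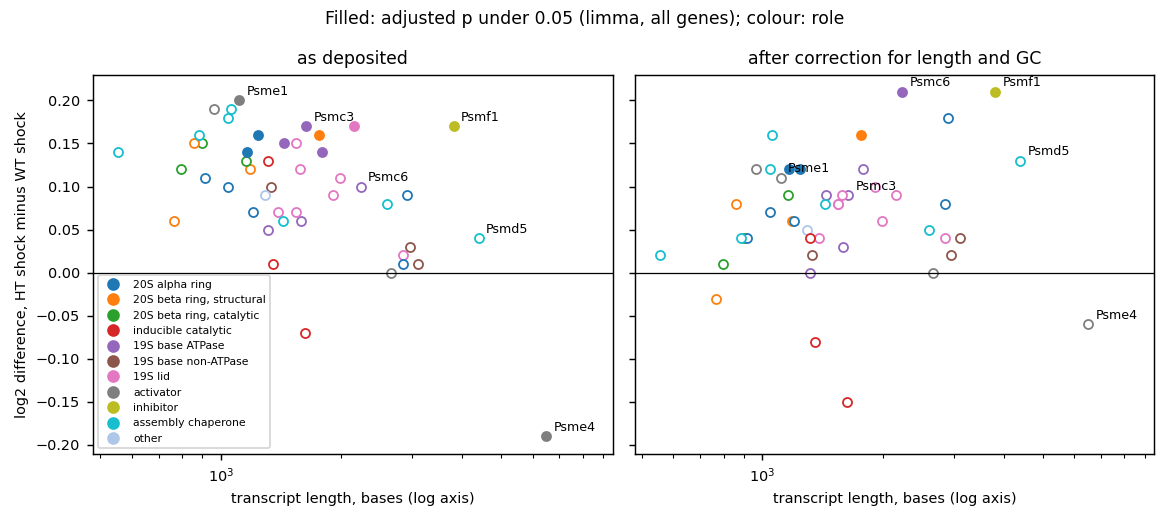
Log2 difference, HT shock minus WT shock, of each member against transcript length in bases (log axis), as deposited and after the correction for length and GC content. Psme4, at 6491 bases, moves from -0.19 to -0.06.

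The comparison of shock with control in heterozygous brain asked what foot-shock changed there. In limma 0 members and 0 of all genes passed, while at an unadjusted p under 0.05 there were 13 members higher and 0 lower (7% and 6.74% of all genes). Groups overlapped for every member, where 0.181% of all genes were higher and 0.105% lower without overlap. Above 0 were 42 of 47 members, against 51% of genes, and the median was 0.073. The smallest p belonged to Psmd7, a lid subunit (0.12 ± 0.04, adjusted p = 0.264), Psma4 (0.11 ± 0.04, 0.277) and Psmd3 (0.12 ± 0.05, 0.306). Below 0 were Psmd5, a base chaperone (-0.09, adjusted p = 0.529), Psmb9 (-0.23, 0.689), Psmb8 (-0.12, 0.726), Psme4 (-0.04, 0.727) and Psmd1 (-0.003, 0.968). Without HT control replicate 6, 10 members rose and 0 fell, where 12.1% of all genes passed, and the median was 0.101. Among them were Psmd3 (0.17, adjusted p = 0.00641), Psmb5 (0.17, 0.00728), Psmd7 (0.15, 0.0113), Psmc4 (0.15, 0.0137) and Psmb6 (0.18, 0.0167). That library was picked for its high values of these same members, so its removal raises these differences. Leaving out any other single library gave 0 members.

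The genotypes without shock gave 0 members in limma, with 2 higher and 0 lower at an unadjusted p under 0.05 (4.96% and 6.11% of all genes). Again 0 members were without overlap, against 0.187% of genes higher and 0.234% lower. The median was 0.055 and 37 members lay above 0, against 49.8% of genes. Psmc4 (0.11 ± 0.05, adjusted p = 0.404), Psma5 (0.10 ± 0.04, 0.404) and Psmd2 (0.06 ± 0.03, 0.462) had the smallest p among positive values, and Psme3 (-0.06 ± 0.03, 0.462), Psme4 (-0.07 ± 0.05, 0.641) and Psmd12, a lid subunit (-0.04 ± 0.03, 0.683), among negative ones. Larger positive values with larger p included Psme2 (0.15 ± 0.08, 0.472) and Psmb8 (0.14 ± 0.15, 0.738). Without HT control replicate 6 the median was 0.017.

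In wild-type brain, shock against control gave 0 members in limma, with 1 higher and 0 lower at an unadjusted p under 0.05 (2.04% and 1.68% of all genes). Groups overlapped for all 47, against 0.164% of genes higher and 0.21% lower without overlap. The median was 0.019, and 29 of 47 lay above 0, against 49.8% of genes. Psma3 (0.12 ± 0.06), Psmb3 (0.09 ± 0.06) and Psmg3, an alpha ring chaperone (0.12 ± 0.08), had the smallest p among positive values, and Psmc6 (-0.07 ± 0.04), Psmd12 (-0.05 ± 0.04) and Psma2 (-0.07 ± 0.05) among negative ones, all with adjusted p = 0.998.

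The interaction, which tests whether shock differed between genotypes, gave 0 members in limma, with 3 positive and 0 negative at an unadjusted p under 0.05 (3.51% and 2.92% of all genes). The median was 0.059 (0.094 without HT control replicate 6) and 40 members were positive, against 49.8% of genes. Psmd12 had the smallest p (0.12 ± 0.05, unadjusted p = 0.0184, adjusted p = 0.758), then Psmb1 (0.15 ± 0.07, adjusted p = 0.767) and Psmc6 (0.13 ± 0.06, 0.772). Among negative values the smallest p belonged to Psme4 (-0.12 ± 0.08, adjusted p = 0.803), Psmb8 (-0.20 ± 0.22, 0.867) and Psma3 (-0.07 ± 0.08, 0.882). A larger shock difference in HT than in WT was thus not shown for any member. These comparisons share groups: each group stands in 2 of the 4 pairwise comparisons, and the interaction uses all 4 groups.

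The inducible subunits stood far below the constitutive ones they replace. Psmb8 stood at 1.31%, 1.4%, 1.31% and 1.12% of Psmb5 per kb, as medians over WT control, WT shock, HT control and then HT shock. Psmb9 stood at 0.539%, 0.48%, 0.636% and 0.467% of Psmb6, and Psmb10 at 18.9%, 19.5%, 18.1% and 19.8% of Psmb7. In HT shock against WT shock none of the 3 passed. Psmb10 had 0.13 (95% interval -0.02 to 0.29), Psmb8 -0.07 (-0.39 to 0.26) and Psmb9 0.01 (-0.54 to 0.56). The wide intervals of Psmb8 and Psmb9 do not exclude changes of the size seen in other members. Psmb8 had 57.87, 44.11, 53.86, 67.82 and 40.79 normalized counts in WT shock and 39.02 to 62.79 in HT shock, and Psmb9 had 29.92, 11.10, 25.88, 19.70 and 19.92 against 13.27 to 27.57, so the groups overlapped. Of 15 antigen processing and interferon genes 0 passed (10 above 0, median 0.028), among them Tap1 (-0.15 ± 0.16).

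Other genes of the pathway were taken from lists of its known components. Of 10 further components and cofactors 0 passed in HT shock against WT shock, with 6 above 0 and a median of 0.069, led by Sem1, a small lid subunit (0.19 ± 0.09, adjusted p = 0.176), and Adrm1, a ubiquitin receptor (0.12 ± 0.06, 0.181). Of the 2 ubiquitin-activating enzymes, Uba1 rose (0.20 ± 0.05, adjusted p = 0.0186), with means of 10120 normalized counts in WT shock and 11600 in HT shock, while Uba6 had -0.21 ± 0.12 (adjusted p = 0.241). None of the 4 ubiquitin genes (median 0.099), 9 shuttles and segregase genes (median 0.008) or 3 regulators, among them the proteasome gene activator Nfe2l1 (-0.03 ± 0.03), passed.

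Markers of some cell types differed in HT shock against WT shock, where 3.95% of all genes passed as higher and 5.33% as lower. Of 7 striatal neuron markers 6 fell and 0 rose, with a median of -0.534 and summed levels of 14040 to 22010 in HT shock and 23440 to 24450 in WT shock. Of 7 oligodendrocyte markers 5 fell and 0 rose (median -0.276, summed 187200 to 233600 against 226000 to 285100), and 1 of 7 astrocyte markers fell. Among 8 neuronal markers, Stmn2 rose and Map2 fell, with summed levels of 200800 to 215300 and 198600 to 214500. Of 10 microglial markers, 6 endothelial, 6 choroid plexus and 5 erythroid markers 0 passed, with medians of 0.094, -0.2, 0.062 and -0.217. In the other pairwise comparisons 0 of the 7 striatal markers lay above 0 and 0 passed. Their medians were -0.273 for HT control against WT control, -0.327 for HT shock against HT control and -0.1 for WT shock against WT control. No marker was at 0 in every library. The part of these markers in the member differences was not tested.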

How the data were processed

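Mouse brain RNA was made into stranded mRNA libraries, per the labels' protocols. Values are a signal, normalized counts with decimals as the authors deposited them. Per the submitters' processing notes, which state no roles, the build was GRCm38 and the tools DESeq2 1.26.0, Salmon 1.1.0 and R 3.6.2. Whole reads could not be recovered, so no counting error or count model was used. The design named limma, with a count test only for a table of raw counts. One column of 24 matched no sample and was not used. Groups and replicate numbers came from the titles.

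Symbols were matched for 18563 of 18578 IDs, with gene models of GENCODE on GRCm38. Values became log2(normalized count + 1), which understates changes of low genes, and the 17118 genes whose mean reached 10 were fitted with limma 3.58.1 (statmod 1.5.0, R 4.3.3; trend and robust moderation, 4 groups in one fit), with Benjamini-Hochberg adjustment over all of them and a threshold of 0.05. The model was tested on simulated data in which genes varied independently, so variation shared between members was not covered. Recovery of differences as small as those of the members is not given here. Members and lists were chosen with earlier results of these data known. By a fixed rule the text names the called members and the 3 smallest p in each direction of each comparison. The rule adds the inducible subunits with their counterparts, and the highest and lowest member of each role. Further members are named outside this rule, to complete a role or for lying near the threshold or not overlapping. Alternatives were median centring, no filter or a stricter one (20 in 5 libraries or more), a pseudocount of 0.5 or 5, only the groups compared, replicate blocks, library weights, an adjusted p of 0.1, each library left out, and corrections for length and GC content together and, added after seeing the data, each alone. Figures used matplotlib 3.10.9 in Python 3.11.15.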

Additional observations from a re-analysis of the deposited data

Results flagged for a closer look

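A library far from the rest of its group was looked for with Dixon's criterion, which chance meets in about 1 of 20. Of 160 combinations of a group with a rule-named member, or with a score over all members or a class, 7 met it. Members outside the naming rule were not searched. In WT control, Psmb9 had 53.98 normalized counts in replicate 2 against 18.01 to 24.32 in the others, and Psmd11 had 2325 in replicate 6 against 1952 to 2058. In WT shock, Psmb10 had 507.6 in replicate 3 against 624.3 to 650.9. In HT control, Psma3 had 2353 in replicate 5 against 1934 to 2065, and Psmb5 had 2648 in replicate 6 against 2038 to 2237. In HT shock replicate 6, Psmc4 had 2671 against 2830 to 2874 and Psmd3 had 4019 against 4385 to 4588.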

How the results depend on the processing

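In HT shock against WT shock, where 10 members passed, with 9.28% of all genes, 16 passed with only the groups compared in the fit (17.1% of all genes), 22 with library weights (22.1%), 17 at an adjusted p under 0.1 (18.1%), 5 with the correction for length and GC content (5.1%) and 3 with length alone (6.62%), and 0 to 16 when single libraries were left out. With the replicate number as a block, 1 member passed by the title numbers (2.63% of all genes) and 5 by the bracketed numbers (5.7%). By the title numbers, same-numbered libraries of different groups had deviations correlated from -0.15 to 0.19. Their median was 0.02 against 0 for other pairs, and 5 of 33 pairs were over 0.1. Whether same-numbered libraries share a batch is not stated, and these correlations cannot decide it. In HT shock against HT control, 17 members passed with library weights (16.3% of all genes) and 0 to 10 when single libraries were left out. Over all settings the member median ran from 0.065 to 0.126 in HT shock against WT shock, 0.035 to 0.108 in HT shock against HT control, 0.014 to 0.07 in HT control against WT control, 0.002 to 0.032 in WT shock against WT control and 0.031 to 0.099 in the interaction. The sign changed for values near 0. In HT shock against WT shock Psme3 (-0.003) had 0 with the replicate block by title number, 0.01 with library weights and with GC content alone, and -0.01 to 0.01 when single libraries were left out, and Psmb8 (-0.07) had -0.15 to 0.03. In HT control against WT control Psme4 had 0 with the correction for length and GC content and Psmd12 had 0 with GC content alone. The cause of these changes was not tested. Of the 13 settings other than omissions, the call was lost in 6 for Psmc2, 5 each for Psmc4 and Psme4, 3 each for Psma5, Psmb1 and Psme1, 2 each for Psma4, Psmc3 and Psmd3 and 0 for Psmf1. Depth is unknown, so no limit from depth could be given.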
